A study of Caenorhabditis elegans with 12 samples.

Results

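The col genes are mostly numbered members of the cuticle collagen family of Caenorhabditis elegans. Here they are every gene whose symbol on the array platform is col- followed by a number. Each was read only from probe sets assigned to that gene alone. The gene of a transmembrane collagen, col-99, is among them. The array held 128 such genes, 16 of them with more than 1 probe set, among 17118 genes with a probe set of their own. Signal above the low-value filter was found for 113 of the 128 genes, and the comparisons below concern these 113. The other 15 (col-8, col-9, col-20, col-54, col-60, col-64, col-69, col-78, col-86, col-116, col-137, col-148, col-152, col-163 and col-177) had mean log2 signals from 2.06 to 3.24, within the range of the background controls described below, and were not tested.

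Cuticle collagens are secreted by the hypodermis, the epidermis of the worm, and are cross-linked outside the cell into the layered cuticle. A new cuticle is made before hatching and again at each larval moult, and many collagen genes are transcribed in pulses timed to that cycle. Each collagen chain is folded, hydroxylated on proline and assembled into trimers in the endoplasmic reticulum (ER), the compartment whose function tunicamycin disturbs by blocking N-linked glycosylation.

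RNA was measured in whole L1 larvae, the first larval stage, that had hatched without bacterial food and were washed off the plates 24 hours after plating. Wild type (N2) larvae and tm3603 larvae, which carry an allele of manf-1, the gene of a secreted ER stress protein, were each kept for 5 hours in buffer with vehicle (DMSO) or with tunicamycin (TM) dissolved in DMSO. Each of the 4 groups had 3 arrays, 12 in all. The replicates carry numbers only, with no word on separate cultures, and the spread that the p-values rest on may therefore be technical. The platform annotation names manf-1 on none of its probe sets, so the arrays give no check of the genotype labels. The mutants represent 1 allele. Whole larvae were used, and fewer cells of a type and less RNA per cell cannot be told apart.

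Values are log2 signals, and a difference of 1 is a 2-fold difference in signal. The 32 control probe sets for bacterial and yeast genes had a median log2 signal of 2.23 and a 95th percentile of 3.34. Of the 113 col genes, 4 had a mean at or under that percentile. The brightest col probe sets over all 12 arrays were those of col-93 (12.85), col-125 (11.98), col-43 (11.66), col-107 (11.61), col-118 (10.84), col-133 (10.78), col-146 (10.74) and col-160 (10.55). The dimmest kept were those of col-61 (3.10), col-56 (3.18), col-55 (3.29) and col-173 (3.33). Brightness depends on the probes as well as on the transcript, so these values do not order the genes by abundance. The adult-specific collagen gene col-19 lay close to background in every group, between 3.06 and 4.02. Among markers of other tissues, 10 of 10 body wall muscle genes and 12 of 12 neuronal genes were above background, and 4 of 11 germline and adult genes were. The yolk protein genes vit-1, vit-2, vit-4 and vit-5 were among those not above it, while vit-6 was above it, with group means from 4.01 to 4.32.

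Tunicamycin was set against vehicle within each genotype to ask how the collagen genes respond to ER stress. Most col genes had lower signal with the drug in both genotypes, by small amounts. In wild type larvae 99 of the 113 had a log2 change below 0, against 52% of all 10844 genes tested, and their median change was -0.28, against -0.02 over all genes. In manf-1 mutants 99 of 113 were below 0, against 51.9% of all genes, and the median was -0.40, against -0.02. The change was below 0 in both genotypes for 90 of 113 col genes, against 30.2% of all genes. A median of -0.28 is a small shift beside the range of single genes, whose changes in wild type ran from a 5th percentile of -0.86 to a 95th percentile of 0.93 over all genes.

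**Figure D1:**
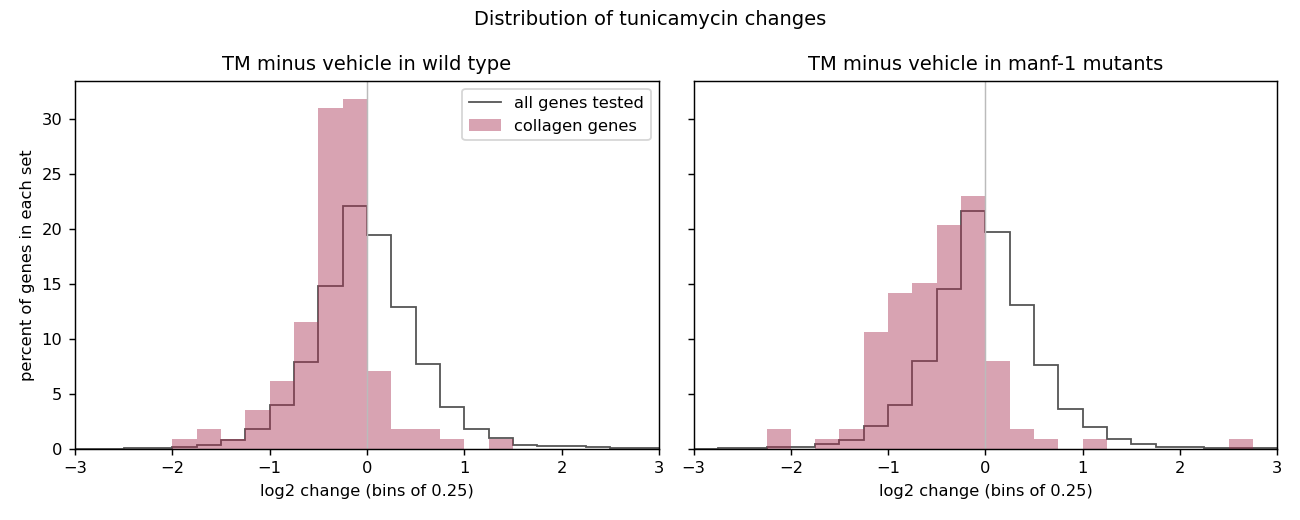
Percent of genes (vertical axis) by log2 change with tunicamycin (horizontal axis, bins of 0.25) in wild type and in manf-1 mutants, for all 10844 genes tested (outline) and the 113 col genes (filled). The filled distributions sit to the left of 0, with medians of -0.28 and -0.40.

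Far fewer col genes passed the test one by one. In wild type 0 of 113 passed an adjusted p of 0.05 in limma, while 0.397% of all genes did (0.378% higher and 0.0184% lower). At an unadjusted p under 0.05 there were 16 lower and 1 higher in wild type, where 3.86% and 4.18% of all genes were lower and higher. In mutants 7 of 113 passed, against 1.13% of all genes. Of these 6 fell, against 0.443% of all genes, and col-89 rose, against 0.692%. The 6 that fell were col-43, col-80, col-125, col-157, col-160 and col-176. At an unadjusted p under 0.05 the mutant counts were 33 lower and 2 higher, where 4.96% and 4.24% of all genes were. With the response averaged over both genotypes 9 passed, against 2.02% of all genes. Of these 8 fell, against 0.83% of all genes, and col-89 rose, against 1.19%. The 8 were col-12, col-43, col-80, col-125, col-153, col-157, col-159 and col-176. At an unadjusted p under 0.05, 40 were lower and 2 higher in that response, against 6.06% and 5.44% of all genes.

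The counts of called genes depend on single arrays. The 7 calls in mutants became 3 without mutant vehicle array 1 or 3, or without mutant TM array 2 or 3, and 1 without the 4 arrays numbered 2. The 9 calls of the averaged response became 4 without mutant vehicle array 1 or 3, mutant TM array 3, wild type vehicle array 3 or wild type TM array 3, 5 without wild type TM array 2, and 4 without the 4 arrays numbered 2. The count of 0 in wild type became 1 without mutant vehicle array 2, and that gene was col-41. The share of all genes called in these settings was not computed, so these shifts cannot be read as particular to the col genes. The arrays numbered 2 were also low, with a slight overlap, in the difference of 3' and 5' signal of 5 control transcripts, centred per transcript, which lay between -0.68 and -0.10 on those 4 arrays and between -0.14 and 0.48 on the other 8. The part of this difference in the results was not tested.

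In mutants and over both genotypes the deepest fall was that of col-176. Its log2 signals were 7.86, 7.48 and 8.07 (vehicle) and 6.95, 6.00 and 6.80 (TM) in wild type, and 7.82, 8.05 and 8.22 (vehicle) and 6.33, 5.47 and 5.76 (TM) in mutants. In both genotypes every TM array was below every vehicle array. The change was -2.18 in mutants (SE 0.36, limma adjusted p 0.00645), a signal 4.52-fold lower, and -1.70 over both genotypes (SE 0.25, adjusted p 0.00186). In wild type alone it was -1.22 (SE 0.36, adjusted p 0.292), which did not pass.

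For col-80 the log2 signals were 8.46, 7.63 and 8.06 (vehicle) and 6.97, 6.81 and 7.31 (TM) in wild type, and 7.48, 6.71 and 8.25 (vehicle) and 5.86, 4.85 and 5.44 (TM) in mutants. The groups did not overlap within either genotype, and the 3 mutant TM arrays were the lowest of the 12. The change was -2.10 in mutants (SE 0.42, adjusted p 0.0257) and -1.56 over both genotypes (SE 0.30, adjusted p 0.0138). It was -1.02 in wild type, with an adjusted p of 0.566.

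A single col gene rose. The probe set of col-89 read 3.92, 3.50 and 3.39 (vehicle) and 5.29, 4.29 and 5.01 (TM) in wild type, and 3.66, 3.16 and 3.64 (vehicle) and 6.51, 6.13 and 5.37 (TM) in mutants. With vehicle it was near the background percentile in both genotypes, and every TM array was higher than every vehicle array. The change was 2.52 in mutants (SE 0.39, adjusted p 0.00471) and 1.89 over both genotypes (SE 0.28, adjusted p 0.00178). In wild type it was 1.26 (SE 0.39, adjusted p 0.365). Since the vehicle values are close to background, these changes may understate the fold. The calls of col-176, col-80 and col-89 over both genotypes passed under each of the 22 alternative settings tried, leaving out each array included, with adjusted p up to 0.0214, 0.0405 and 0.0292. In mutants alone the calls of col-176 and col-89 were lost without the 4 arrays numbered 2 (adjusted p 0.0542 and 0.095), and that of col-80 in 5 of 23 settings.

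The other genes that fell were mostly bright probe sets with modest changes. For col-125 the log2 signals were 12.10, 12.11 and 12.46 (vehicle) and 12.07, 11.95 and 11.71 (TM) in wild type, and 12.35, 12.24 and 12.39 (vehicle) and 11.50, 11.42 and 11.42 (TM) in mutants. The 3 mutant TM values lie close together and below all other arrays. The change was -0.88 in mutants (SE 0.14, adjusted p 0.0055) and -0.60 over both genotypes (SE 0.10, adjusted p 0.00535), against -0.31 in wild type (adjusted p 0.612).

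For col-43 the log2 signals were 11.67, 11.79 and 12.32 (vehicle) and 11.71, 11.59 and 11.38 (TM) in wild type, and 12.001, 11.77 and 12.35 (vehicle) and 11.35, 10.95 and 11.04 (TM) in mutants. The wild type groups overlapped and the mutant groups did not. The change was -0.92 in mutants (SE 0.20, adjusted p 0.0412) and -0.65 over both genotypes (SE 0.14, adjusted p 0.0308). The probe set of col-157 read 10.15, 10.30 and 10.69 (vehicle) and 10.29, 10.03 and 9.83 (TM) in wild type, and 10.58, 10.31 and 10.61 (vehicle) and 9.59, 9.08 and 9.57 (TM) in mutants. Again only the mutant groups were apart, with a change of -1.09 (SE 0.22, adjusted p 0.0309). A second probe set of col-157 had a change of -1.17 in mutants with an adjusted p of 0.338, so the call rests on 1 of 2 probe sets.

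For col-160 the log2 signals were 10.92, 10.55 and 11.20 (vehicle) and 11.06, 10.37 and 10.46 (TM) in wild type, and 11.002, 10.82 and 11.02 (vehicle) and 10.32, 9.56 and 9.39 (TM) in mutants. The mutant groups were apart and the wild type groups overlapped. The change in mutants was -1.19 (SE 0.27, adjusted p 0.0489), just past the threshold, and its second probe set gave -1.41 (adjusted p 0.0225).

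A further 3 genes passed in the averaged response and not within a genotype. For col-12 the log2 signals were 9.53, 9.21 and 9.78 (vehicle) and 9.30, 8.75 and 8.63 (TM) in wild type, and 9.70, 8.93 and 9.78 (vehicle) and 8.54, 7.85 and 7.98 (TM) in mutants. The averaged change was -0.98 (SE 0.22, adjusted p 0.0337), and only the mutant groups were apart. For col-153 the signals were 7.92, 7.0 and 7.52 (vehicle) and 6.42, 6.89 and 6.45 (TM) in wild type, and 7.15, 7.18 and 7.31 (vehicle) and 6.09, 6.37 and 5.97 (TM) in mutants. Both genotypes were without overlap, and the averaged change was -0.98 (SE 0.23, adjusted p 0.0446). For col-159 they were 8.64, 8.34 and 8.63 (vehicle) and 7.90, 7.64 and 7.88 (TM) in wild type, and 8.34, 8.07 and 8.38 (vehicle) and 7.67, 6.89 and 6.82 (TM) in mutants. Again neither genotype overlapped, and the averaged change was -0.93 (SE 0.21, adjusted p 0.0332). These calls are near the threshold. Over the 22 alternative settings the averaged call of col-125 was lost in 1 (eBayes without trend, adjusted p 0.166), and those of col-12, col-43, col-153, col-157 and col-159 in 10 to 13, with adjusted p up to 0.198.

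**Figure D2:**
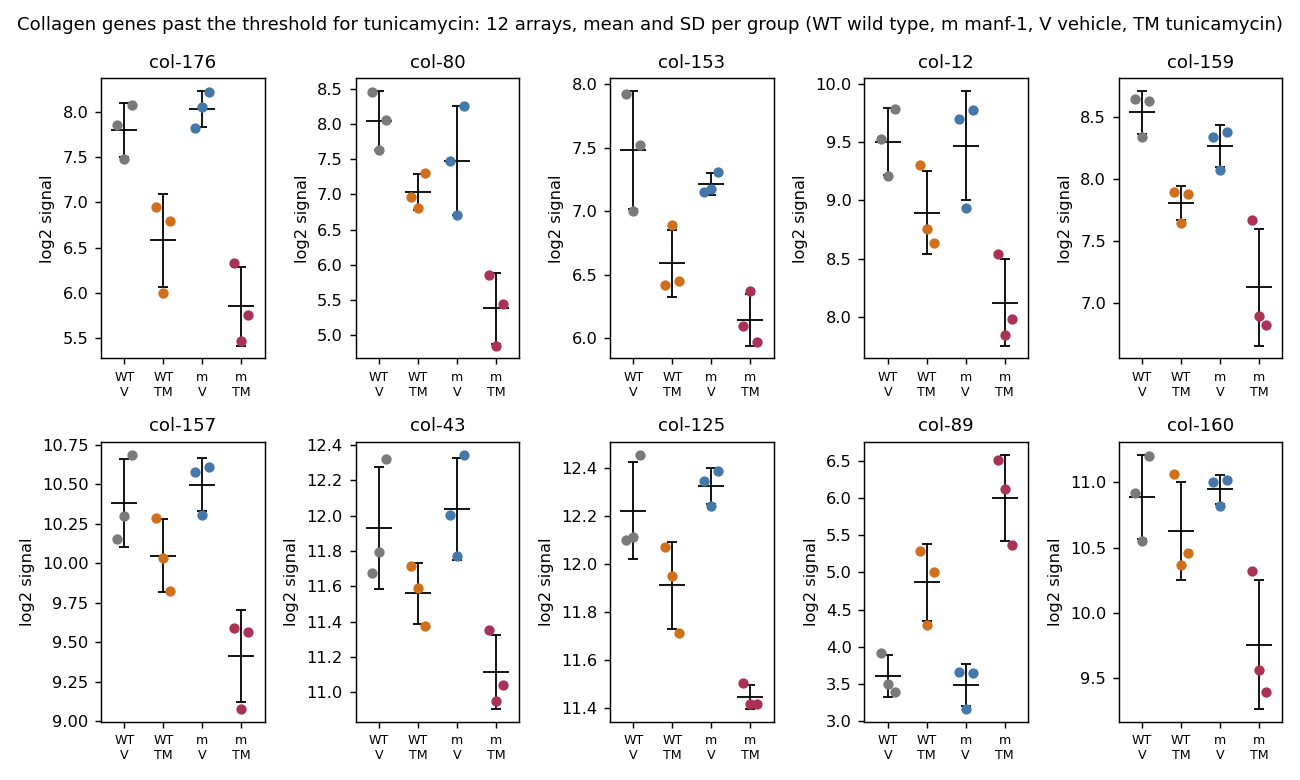
Log2 signal (vertical axes, which do not start at 0) on each of the 12 arrays for the 10 col genes past the threshold in mutants or over both genotypes. Points are arrays, lines the group mean and bars the SD, with WT for wild type, m for manf-1 mutants, V for vehicle and TM for tunicamycin. The 9 genes that fell have their lowest group mean in mutants with TM, and col-89 has its highest there.

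Groups without overlap were more frequent than single-gene calls. In wild type 26 of 113 col genes were lower on every TM array than on every vehicle array, against 5.58% of all genes, and 2 were higher, against 5.74%. In mutants 41 were lower, against 9.15%, and 2 were higher, against 7.68%. In both genotypes at once 14 were lower, against 1.24% of all genes. These were col-17, col-56, col-68, col-77, col-80, col-88, col-122, col-125, col-126, col-127, col-153, col-159, col-176 and col-184. The mean signal of col-56 was under the 95th percentile of the background controls. The low-value filter asks for 3 arrays only, so a gene this dim can be kept through the group where it is higher. Its place in this list is therefore no support for a fall. A further probe set that names both col-126 and col-127 changed by 0.02 in wild type and -0.03 in mutants.

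The changes of single genes were related only loosely between the genotypes. Across the 113 genes the wild type and mutant changes had a Pearson correlation of 0.333 and a Spearman correlation of 0.323, as a description over genes that share the same arrays. The 2 comparisons use different arrays. The change was above 0 in both genotypes for 5 genes and of opposite sign for 18. It was lower in mutants than in wild type for 75 of 113.

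**Figure D3:**
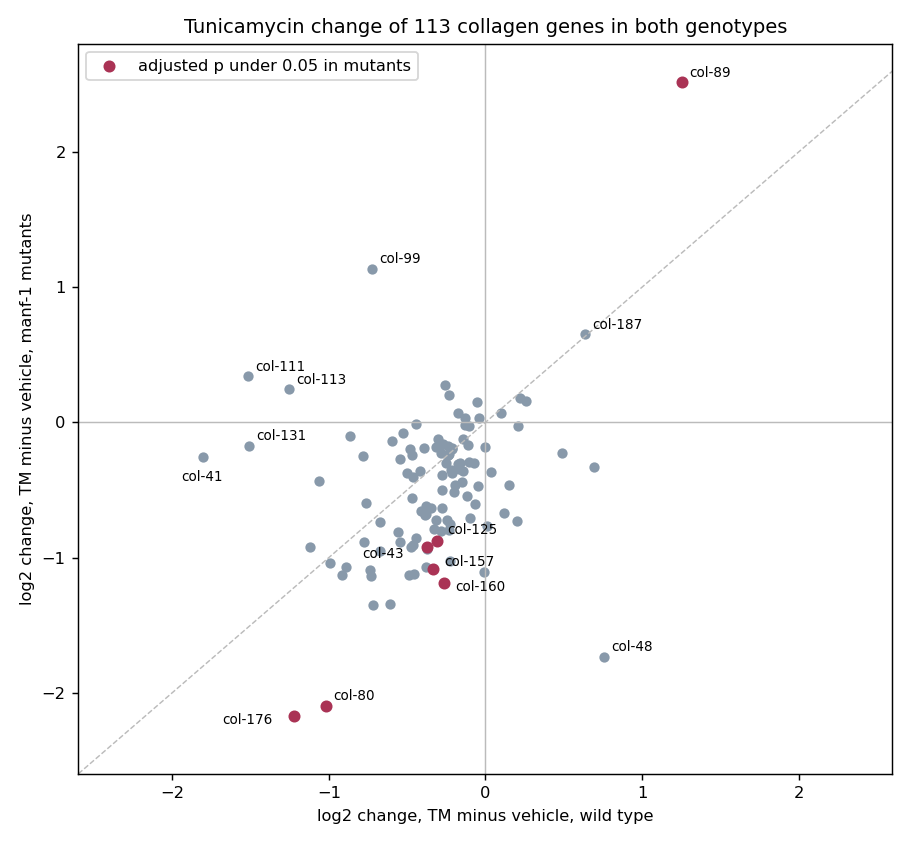
Log2 change with tunicamycin in wild type (horizontal axis) and in manf-1 mutants (vertical axis) for the 113 col genes, with the line of equal change dashed. Red points passed the adjusted threshold in mutants, and most points lie in the lower left part, where 90 genes are below 0 in both.

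Bright probe sets had the larger median changes. In the 37 col genes with the highest mean signal, from 6.30 to 12.85, the median change was -0.46 in wild type and -0.88 in mutants, and all 37 were below 0 in mutants. In the 38 genes of middle signal the medians were -0.33 and -0.32. In the 38 of lowest signal they were -0.17 and -0.24. Probe sets with the suffix _x_at, a platform mark of possible matches to other transcripts (22 genes), were bright, with a median signal of 9.08. They had medians of -0.35 in wild type and -0.91 in mutants. The 26 genes read from _s_at probe sets had a median signal of 5.23, with medians of -0.29 in wild type and -0.33 in mutants. The largest set, 65 genes read from probe sets with the plain suffix _at, had a median signal of 4.95. Its medians were -0.23 in wild type and -0.31 in mutants. Brightness and suffix go together here, and their parts in these medians were not tested. Some _s_at probe sets on the array name several col genes. Signal shared between near-identical collagens may be split among their probe sets, so values from _x_at and _s_at probe sets are uncertain as to the gene.

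**Figure D4:**
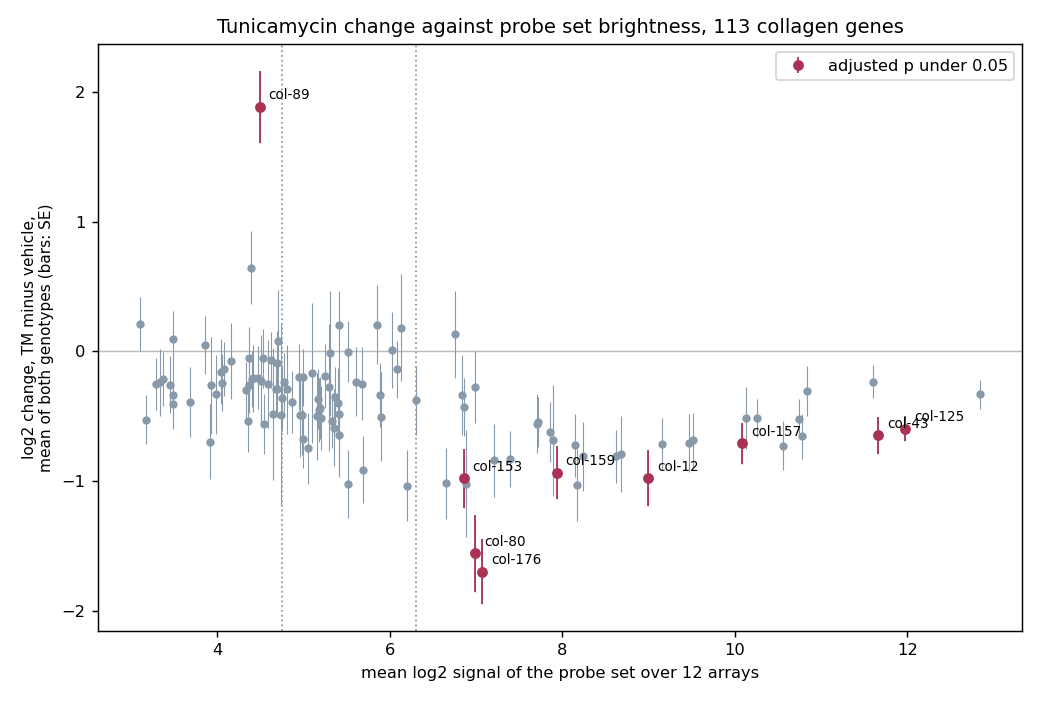
Log2 change with tunicamycin averaged over both genotypes (vertical axis, bars are limma SE) against the mean log2 signal of each col probe set over 12 arrays (horizontal axis), with dotted lines between the genes of lowest, middle and highest signal. Their medians are -0.24, -0.36 and -0.69.

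Summed over the col genes, the antilogged signal was a smaller share of the total with the drug. The share was 2.15% ± 0.25 (SD, n = 3) in wild type with vehicle and 1.72% ± 0.14 with TM. In mutants it was 2.04% ± 0.23 with vehicle and 1.28% ± 0.11 with TM. The vehicle and TM ranges did not overlap in either genotype, from 1.94% to 2.42% against 1.60% to 1.87% in wild type, and from 1.79% to 2.25% against 1.21% to 1.41% in mutants. On this linear scale bright probe sets weigh most.

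Genes next to each other on the chromosome did not all have like changes. By RefSeq gene order, 45 col genes lie in 19 runs of neighbouring col genes, and 24 of them were measured. For the neighbours col-126 and col-127 the wild type changes were -1.12 and -0.996, and the mutant changes -0.92 and -1.04. A further probe set that names both genes did not have these falls, with 0.02 in wild type and -0.03 in mutants. For the run of col-79, col-39 and col-80 the mutant changes were -0.24, -1.12 and -2.10. They were -1.13 and 0.07 for col-104 and col-105, and -0.36 and -1.11 for col-149 and col-150. For col-159 and col-160 they were -1.14 and -1.19. In wild type col-159 had -0.73 and col-160 -0.26.

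The genotypes were then compared within each treatment. No col gene passed the threshold for genotype, with 0 of 113 in vehicle (0.00922% of all genes), in TM (0.0277%) and averaged over both (0.0184%) by limma. At an unadjusted p under 0.05, 6 were lower and 1 higher in mutants with vehicle, against 2.28% and 3.13% of all genes. With TM 17 were lower and 1 higher, against 3.2% and 2.6%. Averaged over treatments 12 were lower and 1 higher, against 2.83% and 3.48%. The median of mutant minus wild type was -0.12 with vehicle (0.03 over all genes) and -0.24 with TM (0.04 over all genes). Signs below 0 numbered 74 of 113 with vehicle, against 46.9%, and 85 of 113 with TM, against 46.3%. Averaged over treatments 92 of 113 were below 0, against 45.8% of all genes. With vehicle 13 col genes were lower on every mutant array than on every wild type array, against 4.5% of all genes, and 1 was higher, against 6.45%. With TM 23 were lower, against 5.34%, and 1 was higher, against 5.4%. The genotype comparisons use the same arrays as the drug comparisons and are not independent of them.

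Averaged over treatments the smallest p values for genotype were those of col-165 and col-80. The log2 signals of col-165 were 7.63, 6.22 and 7.94 (vehicle) and 7.61, 7.39 and 8.26 (TM) in wild type, and 6.63, 6.10 and 5.60 (vehicle) and 6.04, 6.30 and 5.32 (TM) in mutants. With TM the mutant arrays were all below the wild type arrays, and with vehicle the groups overlapped. The averaged change was -1.51 (SE 0.34, adjusted p 0.297).

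The drug's effect was compared between genotypes by the interaction. Again 0 of 113 col genes passed in limma, and 0% of all genes did, with 6 higher and 4 lower at an unadjusted p under 0.05, against 2.12% and 2.59% of all genes. The median interaction was -0.18, and 75 of 113 were below 0, against 50.1% of all genes. The 6 higher were col-41, col-89, col-99, col-111, col-113 and col-131, and the 4 lower were col-125, col-150, col-157 and col-160. A difference between the genotypes in the response was therefore not shown for a single col gene, although 7 passed the threshold in mutants and 0 in wild type.

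Of these, col-41 had the smallest p in wild type. Its log2 signals were 9.25, 9.47 and 9.36 (vehicle) and 8.0, 7.27 and 7.39 (TM) in wild type, and 8.21, 7.11 and 8.74 (vehicle) and 7.30, 8.10 and 7.89 (TM) in mutants. The wild type vehicle arrays stand above all others, and the mutant groups overlap. The wild type change was -1.80 (SE 0.39, adjusted p 0.0729), the mutant change -0.26 (adjusted p 0.944), and the interaction 1.55 (adjusted p 0.995). For col-111, col-113 and col-131 too, the 3 wild type vehicle arrays lay above the other 9 arrays. For col-111 the signals were 6.79, 5.65 and 6.56 (vehicle) and 5.32, 4.33 and 4.79 (TM) in wild type, and 4.62, 4.70 and 5.58 (vehicle) and 5.41, 5.09 and 5.43 (TM) in mutants. For col-99, a collagen with a transmembrane segment, they were 6.71, 5.67 and 6.54 (vehicle) and 6.25, 4.80 and 5.69 (TM) in wild type, and 5.37, 5.42 and 4.76 (vehicle) and 6.09, 6.61 and 6.26 (TM) in mutants. The mutant TM arrays of col-99 lay above the mutant vehicle arrays, but its second probe set had changes of 0.06 in wild type and -0.17 in mutants, against -0.72 and 1.14 for the first.

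**Figure D5:**
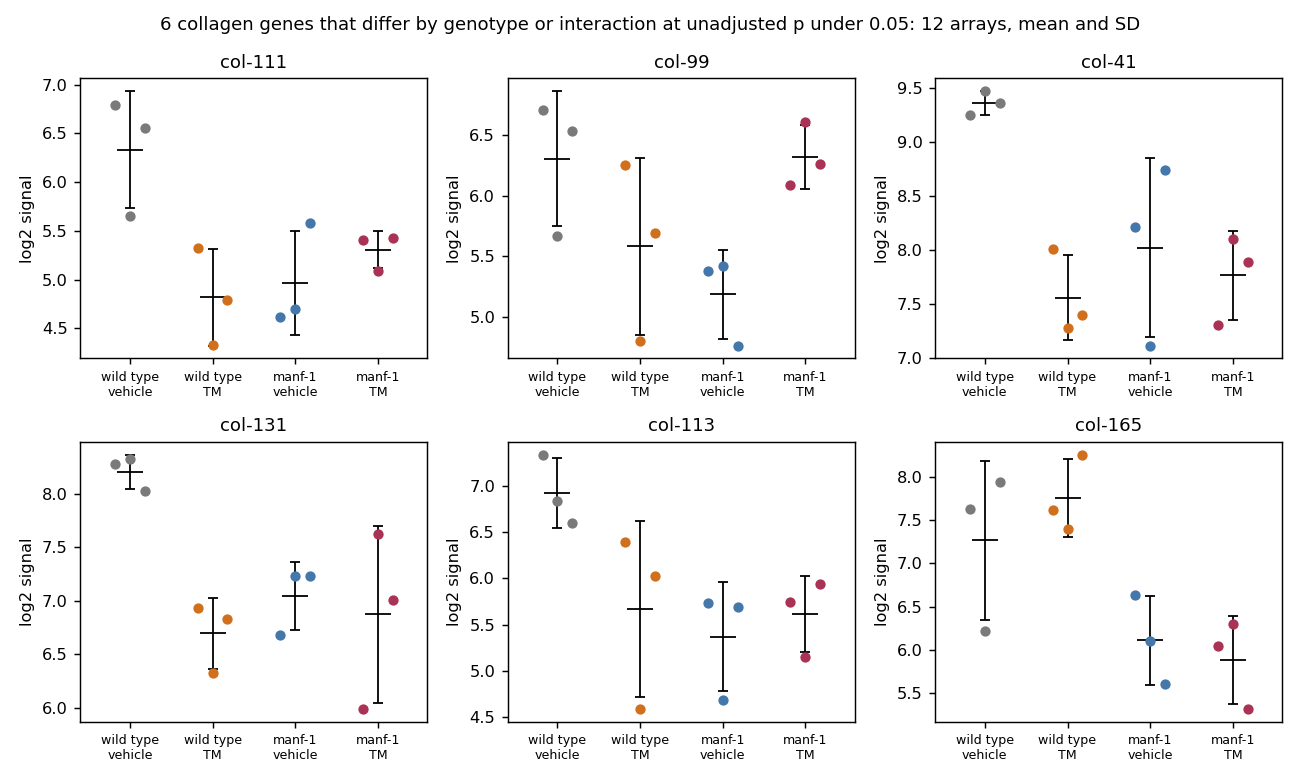
Log2 signal (vertical axes, which do not start at 0) on the 12 arrays for 6 col genes, with group mean and SD. Each differed by genotype or interaction at an unadjusted p under 0.05. They are col-165, from the genotype comparison, and col-41, col-99, col-111, col-113 and col-131, which were higher in the interaction. Also higher was col-89, which is in the plot of genes past the threshold. The 4 that were lower (col-125, col-150, col-157 and col-160) are left out here. The panels therefore do not show the direction of most col genes, as 75 of 113 interactions were below 0. None of the 6 passed the adjusted threshold for genotype or interaction.

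Some col genes varied widely within a group. An SD above 1 was found for 1 gene (vehicle) and 4 genes (TM) among wild type arrays, and for 8 (vehicle) and 6 (TM) among mutant arrays. The median SD of the col genes was 0.277 (vehicle) and 0.279 (TM) in wild type, and 0.297 (vehicle) and 0.277 (TM) in mutants. The share of all genes with an SD above 1 was not computed, so these counts cannot be read as particular to the col genes. The dauer collagen gene col-2 read 4.94, 5.02 and 4.76 (vehicle) and 4.90, 4.54 and 4.53 (TM) in wild type, and 6.32, 4.57 and 7.0 (vehicle) and 4.48, 5.07 and 7.45 (TM) in mutants. Among mutants, arrays 1 and 3 were high with vehicle and array 3 with TM, while the wild type arrays were even. For col-48 the mutant values ran from 2.93 to 7.40 with vehicle and from 2.49 to 5.54 with TM.

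Other collagens and the genes that make the cuticle were read beside the col genes. Of 5 furrow collagens tested (dpy-2, dpy-3, dpy-7, dpy-8 and dpy-9, which form the annular furrows), none passed in a tunicamycin comparison, all 5 were below 0 in each genotype, and the medians were -0.66 in wild type and -0.80 in mutants. Of 12 other cuticle collagens 11 were below 0 in each genotype, with medians of -0.88 and -0.76, and none passed. The 3 basement membrane collagens, which are not part of the cuticle, had medians of -0.003 in wild type and -0.03 in mutants, and none passed.

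Among 17 genes of collagen processing and secretion, 2 rose past the threshold in each genotype, against 0.378% of all genes in wild type and 0.692% in mutants. These were dpy-18 and pdi-2. They encode the alpha and beta subunits of prolyl 4-hydroxylase, the ER enzyme that hydroxylates collagen, and pdi-2 is also a protein disulphide isomerase. The change of dpy-18 was 3.29 in wild type (adjusted p 0.00098) and 4.60 in mutants (adjusted p 3.34e-05). That of pdi-2 was 2.20 (adjusted p 0.00163) and 2.63 (adjusted p 0.000152). For phy-2, which encodes another alpha subunit, the changes were 1.48 and 1.29 and did not pass. The median of the 17 was 0.40 in wild type and 0.19 in mutants.

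Of 22 genes of cuticle transcription and moulting none passed, with medians of -0.42 and -0.40 and 18 below 0 in each genotype. The 17 cuticlins, structural proteins of the cuticle outside the collagen family, had medians of 0.02 and -0.05. Of the 17 only cut-3 fell over both genotypes, by 1.58 (SE 0.34, adjusted p 0.0274), against 0.83% of all genes. Its mean was 2.75 in mutants with TM, within the background range, so this value may understate the fall.

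Markers of the hypodermis, which makes the collagens, had lower summed signal with TM in wild type and overlapped in mutants. Of 14 hypodermal markers on the array 11 were above background, and che-14, hch-1 and wrt-8 were not. None of the 11 tested passed, with 10 below 0 in each genotype and medians of -1.01 in wild type and -0.26 in mutants. The log2 of the summed signal of all 14 ranged from 11.98 to 12.30 (vehicle) and from 11.27 to 11.69 (TM) in wild type. In mutants it ranged from 11.57 to 12.12 (vehicle) and from 11.17 to 11.80 (TM). The summed signal of intestinal markers ranged from 11.85 to 12.13 (vehicle) and from 10.96 to 11.54 (TM) in wild type, and from 11.58 to 12.14 (vehicle) and from 11.05 to 11.10 (TM) in mutants, without overlap in either genotype. All 11 intestinal markers were above background. With TM 9 of the 11 were below 0 in wild type (median -0.34) and 7 in mutants (median -0.64), and none passed within a genotype. Over both genotypes 2 of the 11, asp-1 and lys-1, which encode an aspartyl protease and a lysozyme, fell by 1.10 (adjusted p 0.0116) and 1.18 (adjusted p 0.0357). Of all genes 0.83% fell past the threshold in that response. Markers of the other tissues were read in the same way. The 10 muscle markers had medians of -0.19 in wild type and 0.04 in mutants. Of the 10 only tni-1, a troponin gene, fell over both genotypes, by 0.63 (adjusted p 0.0412), against 0.83% of all genes. The 12 neuronal markers had medians of -0.22 and -0.16, with 11 below 0 in each genotype, and none passed. The 7 pharyngeal markers tested had medians of 0.52 and -0.04, with 0 below 0 in wild type and 4 in mutants, and none passed. The part of these tissue markers in the collagen changes was not tested.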

How the data were processed

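Biotin-labelled cRNA of whole L1 larvae was hybridised to 1-colour Affymetrix arrays, per the labels' protocols. The deposited table holds the authors' log2 signals on 12 arrays, and the log2 scale was read from the range of the values. MAS5 is listed, per the submitters' processing notes, with neither version nor role. How the values were background-corrected and normalized is not given in the sources used here, and a step that compresses dim signals would shrink differences of dim genes. The labels disagree on the volume unit of the tunicamycin dose, so the dose is not given. The build behind the values is not given in the sources used here, and coordinates are left out.

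The 77 control probe sets were left out. A probe set was kept where 3 or more arrays put it above that array's 40th percentile, which held for 14709 of the other 22548. Gene names came from the platform annotation, and gene order from the RefSeq table of assembly WBcel235. Where a gene had several kept probe sets, the brightest on average stood for it, which left 10844 genes.

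A limma 3.58.1 model in R 4.3.3 took 1 mean per group from the 12 arrays (lmFit, then eBayes with trend), leaving 8 residual degrees of freedom plus 5.93 from the prior. Tests of the 7 contrasts were two-sided, with Benjamini-Hochberg adjustment over all kept probe sets and a threshold of 0.05. The fit was tested on simulated data. The number of arrays, 3 per group, limits the precision.

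Named genes are the col genes past the threshold, those with the smallest p-values, the brightest and dimmest, and members of known lists. The members and the gene lists were chosen with earlier results of these data known. Alternatives were quantile normalization, array centring, other low-value filters, another probe set rule, eBayes without trend, a replicate block, only the groups compared, and leaving out arrays. Sequence features of the collagens were not analysed here.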

Additional observations from a re-analysis of the deposited data

How the results depend on the processing

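The median change of the col genes kept its sign in every setting tried for all 7 contrasts, among them quantile normalization, centring, filters, and leaving out each array or the 4 arrays numbered 2. Leaving out 1 array at a time gave medians from -0.37 to -0.19 for tunicamycin in wild type, -0.63 to -0.34 in mutants and -0.47 to -0.32 averaged, and counts of called genes from 0 to 1, 3 to 7 and 4 to 10. The medians for genotype ran from -0.23 to -0.01 with vehicle, -0.30 to -0.19 with TM and -0.25 to -0.16 averaged, and that of the interaction from -0.28 to -0.04, with 0 calls throughout. The mutant median became -0.61 with a filter at the 60th percentile and -0.59 without the 4 arrays numbered 2. The mutant count became 3 with eBayes without trend, 3 with only the groups compared and 1 without the arrays numbered 2. The averaged count became 4 with no filter and 4 without the arrays numbered 2, and the wild type count 1 with the 60th percentile filter. The cause was not tested, except that fewer arrays or other numbers of genes enter by construction. The counts are of col genes only, and the share of all genes called was not computed for these settings. Only the groups compared could not be run for averaged contrasts and the interaction, which use all 4 groups.

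With the replicate number as a replicate block the counts of col genes were 0 in wild type, 9 in mutants and 11 averaged. The share of all genes called with the block was not computed. Same-numbered arrays of different groups deviated from their group means with correlations from -0.08 to 0.23 (median 0.05, 7 of 18 over 0.1). Differently numbered arrays had a median of -0.05, with 3 of 36 over 0.1, and 8 of 12 arrays correlated best with their own number. This is a hint of shared numbers from the data, but not every pair was over 0.1 and the labels name no shared source, so the main values are without the block.

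The number of col genes below 0 in mutants went from 99 to 96 with quantile normalization and 97 with centring. Among the genes followed singly, signs reversed in mutants for 4, none past the threshold. For col-131 the change became 0.20 with the mean of its probe sets and ran from -0.55 to 0.27 when arrays were left out one at a time. Likewise it ran from -0.42 to 0.12 for col-118 (0.06 without mutant vehicle array 1), from -0.10 to 0.47 for col-113 and from -0.71 to 0.10 for col-41. In wild type the change of col-150, which was close to 0, ran from -0.11 to 0.12 and was 0.21 without the 4 arrays numbered 2.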

Other observations

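A further 17 kept probe sets name several col genes each and belong to no single member. In mutants 16 of them were below 0 with tunicamycin, against 51.9% of all genes, with a median of -0.83, and 5 fell, against 0.443% of all genes. They included the probe set of col-3 and col-117 (-0.90, limma adjusted p 0.0061) and both probe sets of col-12 and col-13 (-1.66, adjusted p 0.00807, and -1.51, adjusted p 0.0257). The others were a probe set of col-10 and col-144 (-0.89, adjusted p 0.0262) and that of col-166, col-169 and col-170 (-0.83, adjusted p 0.0273). Further probe sets of col-10 and col-144 did not pass (-0.77, adjusted p 0.0838, and -0.68, adjusted p 0.156). Nor did those of col-167, col-168 and col-170 (-0.73, adjusted p 0.196) and of col-167, col-168 and col-169 (-0.84, adjusted p 0.0872). In wild type 15 of the 17 were below 0, against 52% of all genes, with a median of -0.24, and 0 passed, against 0.397%. These probe sets share transcripts with some of the members and are not independent of them.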
